A study of Mus musculus with 8 samples.

Results

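The fibroblast growth factor (FGF) genes of the mouse were followed in the whole uterus, as the genes of the FGF ligands and their intracellular relatives, the FGF receptors, the FGF-binding proteins, the FRS adaptors and the Sprouty inhibitors. Members were taken by symbol, and 34 of the 19938 genes tested belonged to the set, with 1 probe set each. The adaptor gene Frs2 was not analysed here. Whole uteri of 4 Foxa2-deleted mice (PgrCre/+ Foxa2flox/flox) and of 4 control mice (Pgr+/+ Foxa2+/+) were each run on 1 microarray, and the labels call the replicates biological. In the Foxa2-deleted animals Cre recombinase was made from 1 allele of the progesterone receptor gene Pgr, so Cre acted in cells that use Pgr and these animals also had 1 Pgr allele fewer than the controls. The controls carried neither Cre nor floxed Foxa2, so the effect of Cre and of the Pgr allele cannot be told apart from that of the Foxa2 deletion. All females had been mated to wild type vasectomised males and were killed on day 3.5 of pseudopregnancy, counting the plug day as day 0.5. The labels used here give no age or strain.

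FGFs are secreted proteins that bind heparan sulfate and activate receptor tyrosine kinases at the cell surface. The FRS adaptors pass the signal to the RAS-MAPK kinases, and Sprouty proteins are induced by the pathway and dampen it. In the mouse uterus, FGFs made by the stroma act on the receptors of the epithelium and drive its growth. The transcription factor HAND2, made in progesterone-exposed stroma, holds down Fgf1, Fgf2, Fgf9 and Fgf18 and so restrains the epithelium before implantation.

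In Foxa2-deleted uteri 4 of the 34 FGF genes were higher than in controls and 0 were lower, by an adjusted p below 0.05 in limma with the Benjamini-Hochberg adjustment over all genes tested. At an unadjusted p below 0.05 there were 8. The 4 were the heparin-binding ligand gene Fgf2, the receptor gene Fgfr4, the decoy receptor gene Fgfrl1 and the intracellular factor gene Fgf12. Of all genes tested 11.1% were called in either direction, 4.5% higher and 6.58% lower. The FGF genes were called in either direction at 11.8%, close to the share among all genes, with every one of these calls on the higher side. The changes were small. Fgf2 differed by 1.55-fold and was the only FGF gene of the 4 past 1.5-fold, a size that 3.28% of all genes reached among those called. The other 3 differed by 1.19-fold to 1.41-fold. The count moved with single control arrays: 3, 1, 0 and 0 FGF genes passed without control replicates 1, 2, 3 and 4, and among all genes the share called was then 5.57%, 2.79%, 3.1% and 2.79%.

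The promoters shown are those of the 4 genes that were called and that of Fgf10, the 1 FGF gene with a forkhead motif in this table. They come from RefSeq on the build GRCm38.p6, in which 25 of the 34 genes had a promoter entry, and each covers the 250 bases before the gene's start, 5′ to 3′. Capitals mark the forkhead motif. The motif was searched as TGTTTAC and TATTTAC on both strands and was present in 5.76% of all 32851 promoters of that length. Overlap with other motifs was not examined.
Fgf2 promoter, chr3:37348403-37348652, plus strand: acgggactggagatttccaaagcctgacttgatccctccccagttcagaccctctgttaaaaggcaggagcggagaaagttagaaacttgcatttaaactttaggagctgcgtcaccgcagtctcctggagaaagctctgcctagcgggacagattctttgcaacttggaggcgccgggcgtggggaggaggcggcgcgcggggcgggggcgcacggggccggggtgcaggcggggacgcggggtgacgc
Fgfr4 promoter, chr13:55152568-55152817, plus strand: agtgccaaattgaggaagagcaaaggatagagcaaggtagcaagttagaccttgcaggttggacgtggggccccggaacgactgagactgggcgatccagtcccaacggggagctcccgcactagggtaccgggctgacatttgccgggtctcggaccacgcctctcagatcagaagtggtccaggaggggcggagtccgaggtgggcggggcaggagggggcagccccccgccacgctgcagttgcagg
Fgfrl1 promoter, chr5:108693979-108694228, plus strand: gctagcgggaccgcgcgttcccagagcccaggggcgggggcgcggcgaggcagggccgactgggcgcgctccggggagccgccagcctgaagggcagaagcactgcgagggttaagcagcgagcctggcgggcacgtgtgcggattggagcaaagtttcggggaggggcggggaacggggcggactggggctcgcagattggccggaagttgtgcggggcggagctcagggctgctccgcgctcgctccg
Fgf12 promoter, chr16:28753244-28753493, minus strand: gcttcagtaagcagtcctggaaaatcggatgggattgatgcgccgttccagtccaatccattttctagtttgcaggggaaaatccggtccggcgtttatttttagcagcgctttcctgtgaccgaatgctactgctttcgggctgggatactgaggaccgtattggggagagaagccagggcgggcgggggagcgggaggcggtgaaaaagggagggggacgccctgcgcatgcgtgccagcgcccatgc
Fgf10 promoter, chr13:118714449-118714698, plus strand: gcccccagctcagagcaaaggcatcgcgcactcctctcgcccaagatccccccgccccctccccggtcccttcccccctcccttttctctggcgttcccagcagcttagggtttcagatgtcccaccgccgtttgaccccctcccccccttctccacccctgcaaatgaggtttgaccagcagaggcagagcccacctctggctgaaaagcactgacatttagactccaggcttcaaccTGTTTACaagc
Fgf12 has 4 starts in this table and the first listed is shown. None of the 7 promoters of the 4 called genes held the motif, and of the 32 promoters of FGF genes only that of Fgf10 did, with TGTTTAC on the plus strand. An estrogen receptor palindrome, searched as GGTCA and TGACC with 3 bases between them on both strands, was in 0 of these 32 promoters and in 0.0639% of all promoters. No match says only that these letters are not in this window. The G and C content was 62.4% for Fgf2, 64.0% for Fgfr4, 73.6% for Fgfrl1, 58.4% for Fgf12 and 61.2% for Fgf10, against a median of 52.4% over all promoters.

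The arrays followed their labels. Foxa2 itself was at 8.22, 8.20, 8.21 and 8.21 log2 intensity in Foxa2-deleted uteri, against 8.61, 8.82, 8.74 and 8.73 in controls (log2 difference -0.52, SE 0.05, adjusted p = 0.0013, limma). The sources do not say if the deletion covers its probe set. Array medians lay between 8.25 and 8.32, and with 4 arrays a group the precision is limited by their number. Correlations of pairs of arrays over genes (no independent replicates) ran from 0.981 to 0.990 among Foxa2-deleted uteri and from 0.996 to 0.997 among controls. The median SD of the FGF genes was 0.097 in Foxa2-deleted uteri and 0.076 in controls on the log2 scale, and 20 of the 34 varied more in Foxa2-deleted uteri, where 70.3% of all genes did. Which FGF genes were above background is unknown, as detection calls were not used here. In whole tissue, fewer cells of a type and less RNA per cell cannot be told apart.

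Among the 15 paracrine ligand genes, Fgf2 was higher and the other 14 did not pass. FGF2 is a ligand held on heparan sulfate in the matrix, and its gene is one of those that HAND2 holds down. Fgf2 read 10.33, 9.78, 10.25 and 9.84 log2 intensity in Foxa2-deleted replicates 1 to 4, against 9.49, 9.49, 9.27 and 9.43 in control replicates 1 to 4. The groups did not overlap, and the Foxa2-deleted arrays fell into a higher pair, replicates 1 and 3, and a lower pair, replicates 2 and 4. The log2 difference was 0.63 (SE 0.13, adjusted p = 0.021, limma). Leaving out control replicate 2, 3 or 4 ended the call (adjusted p = 0.0594, 0.0678 and 0.0655), while the difference stayed between 0.54 and 0.72 with any 1 array left out.

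Fgf2 overlaps the gene Nudt6, its known antisense partner, and the noncoding gene Fgf2os in the RefSeq table. These were looked up after the values of Fgf2 were seen. Nudt6 differed by 0.06 (SE 0.05, adjusted p = 0.44) and Fgf2os by 0.22 (SE 0.08, adjusted p = 0.11), both on the log2 scale and neither past the threshold. Fgf2 and the Sprouty gene Spry1 lie on chromosome 3 with 2 coding genes between them, and Spry1 did not pass either.

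The other 3 ligand genes held down by HAND2 did not pass. Fgf1, which encodes a ligand able to bind every FGF receptor, read 9.57, 9.55, 9.44 and 9.36 log2 intensity in Foxa2-deleted uteri and 9.48, 9.63, 9.53 and 8.90 in controls (log2 difference 0.10, SE 0.15, adjusted p = 0.68). Its groups overlapped, control replicate 4 stood below all the others, and without that array the difference was -0.07. Fgf9, which encodes a ligand of mesenchymal and epithelial growth, read 8.19, 8.21, 8.12 and 8.25 in Foxa2-deleted uteri and 8.08, 8.18, 8.15 and 8.01 in controls on the log2 scale (difference 0.09, 95% interval -0.03 to 0.21, adjusted p = 0.29). Fgf18, which encodes a ligand of the FGF8 subfamily, read 8.96, 8.62, 8.38 and 9.17 in Foxa2-deleted uteri and 8.60, 8.54, 8.57 and 8.39 in controls (difference 0.26, 95% interval -0.09 to 0.61, adjusted p = 0.28). In Fgf18 all but 1 of the Foxa2-deleted arrays, replicates 1, 2 and 4, lay above every control and replicate 3 below every control.

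The genes of 2 ligands that act from stroma on epithelial FGFR2 did not pass. Fgf7, which encodes keratinocyte growth factor, read 8.54, 8.41, 8.18 and 8.22 log2 intensity in Foxa2-deleted uteri and 8.38, 8.32, 8.17 and 8.47 in controls. Its difference was 0.00 with a 95% interval of -0.21 to 0.22 (adjusted p = 0.99). Fgf10, a relative of Fgf7 needed for the budding of many epithelia, read 8.26, 8.46, 8.44 and 8.88 in Foxa2-deleted uteri and 8.26, 8.33, 8.07 and 8.15 in controls (log2 difference 0.31, SE 0.12, adjusted p = 0.13). Replicate 1 of the Foxa2-deleted uteri lay among the controls and replicate 4 stood highest.

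A further 3 ligand genes had groups that did not overlap without passing the threshold. Fgf16, of the FGF9 subfamily, read 7.70, 7.53, 7.64 and 8.18 log2 intensity in Foxa2-deleted uteri and 7.30, 7.36, 7.30 and 7.32 in controls (log2 difference 0.44, SE 0.12, adjusted p = 0.0533). Foxa2-deleted replicate 4 stood well above the rest, and without it the difference was smaller, at 0.30, but passed (adjusted p = 0.0158). Fgf16 also passed without Foxa2-deleted replicate 2 (adjusted p = 0.0268), with arrays centred on their medians (0.0393), with the dimmest 25% of genes left out (0.0492) and with array weights (0.0252). These are the 5 of 17 alternative settings in which it passed, and in the others its adjusted p reached 0.127. Fgf3, which encodes a ligand of ear and tail development, read 7.60, 7.63, 7.58 and 7.54 in Foxa2-deleted uteri and 7.50, 7.51, 7.39 and 7.40 in controls (log2 difference 0.14, SE 0.05, adjusted p = 0.091). Fgf17, of the FGF8 subfamily, read 8.29, 8.21, 8.21 and 8.23 in Foxa2-deleted uteri and 8.19, 8.13, 8.02 and 8.19 in controls (log2 difference 0.10, SE 0.05, adjusted p = 0.21). Counting the 4 called genes, 7 of the 34 FGF genes (20.6%) had groups that did not overlap, each with Foxa2-deleted uteri higher, where 21.1% of all genes tested did not overlap and 9.55% did so on the higher side.

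**Figure D1:**
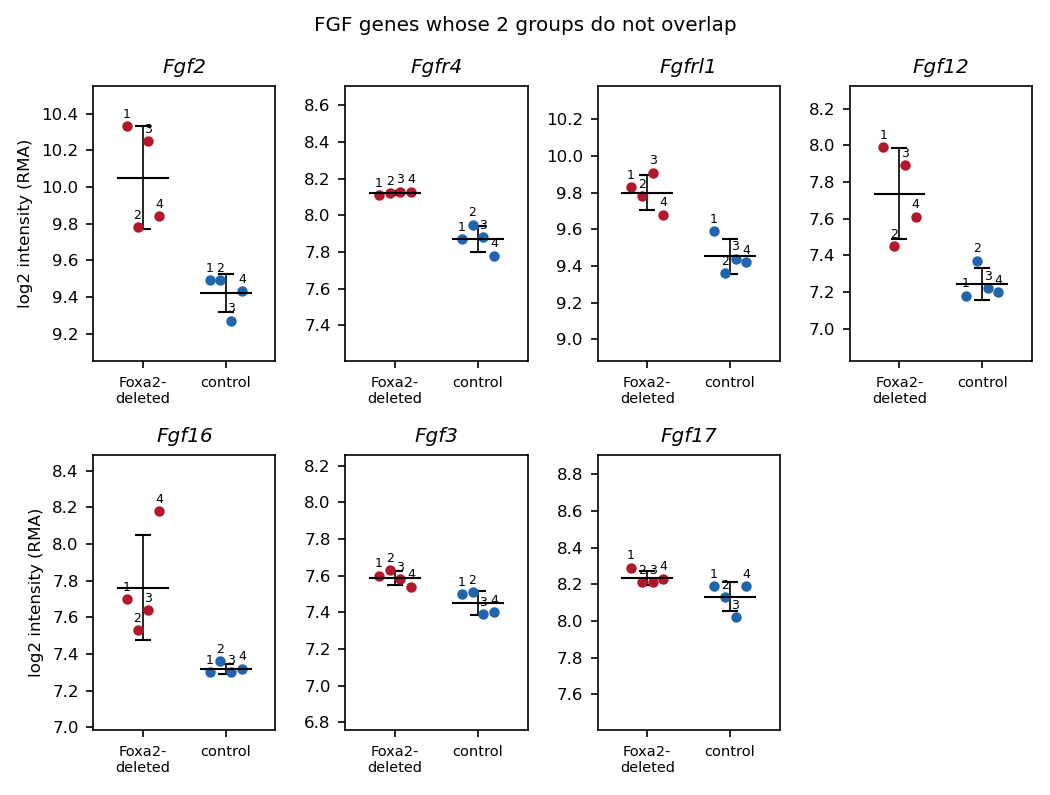
Log2 intensity (vertical axis, each panel spanning the same range of 1.5) of the 7 FGF genes whose groups do not overlap, for 4 Foxa2-deleted and 4 control uteri. Points are arrays numbered by replicate, and horizontal lines with bars are the mean and SD; Fgf2 and Fgf12 split the Foxa2-deleted arrays into replicates 1 and 3 above replicates 2 and 4, and Fgfr4 lies between 8.11 and 8.13 on all 4 Foxa2-deleted arrays.

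The remaining paracrine ligand genes, Fgf4, Fgf5, Fgf6, Fgf8, Fgf20 and Fgf22, had log2 differences from 0.02 for Fgf22 to 0.18 for Fgf8, and their groups overlapped. Fgf8, which encodes a ligand that patterns the embryo, passed in 1 of 18 alternative settings, without Foxa2-deleted replicate 4 (difference 0.23, adjusted p = 0.0301). The 3 endocrine ligand genes, whose products need a Klotho protein to signal, were also uncalled. Fgf15, a gut hormone gene that controls bile acid synthesis, differed by 0.11, Fgf21, a liver hormone gene of fasting, by 0.09, and Fgf23, a bone hormone gene of phosphate balance, by 0.06 on the log2 scale. Fgf3, Fgf4 and Fgf15 are neighbours on chromosome 7 with 0 coding genes between them, as are Fgf6 and Fgf23 on chromosome 6, and the only non-overlapping gene of these 5 was Fgf3.

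All 15 paracrine and all 3 endocrine ligand genes had a difference above 0, and 28 of the 34 FGF genes did, where 52.0% of all genes tested did. The median difference of the FGF genes was 0.09 on the log2 scale and that of all genes 0.01. This share moved with the brightness of the probe sets, which is no measure of the level of one gene against another. With all genes put into 4 equal bins by mean intensity, the share with a difference above 0 was 69.6% in the dimmest bin, 58.8% in the second, 36.7% in the third and 42.7% in the brightest. The dimmest bin held 5 FGF genes, the second 18, the third 8 and the brightest 3. In these bins 3, 16, 7 and 2 of them had a difference above 0. The part of intensity in the direction of the ligands was not tested. Under other scalings of the arrays all 15 paracrine ligands remained above 0, and with 1 array left out 13 to 15 did.

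**Figure D2:**
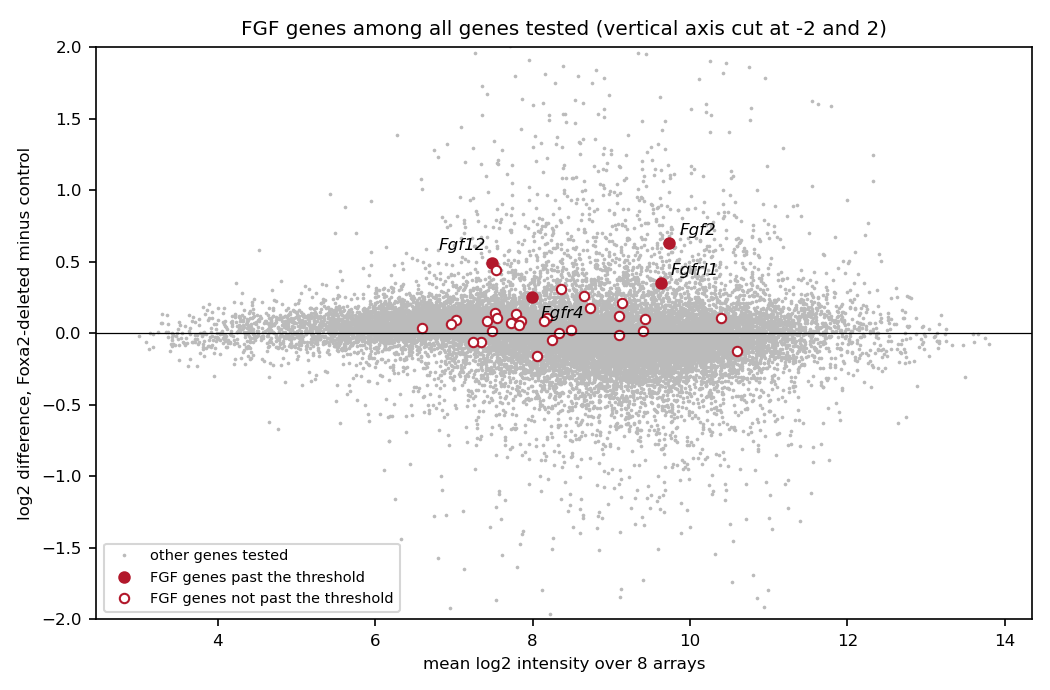
Log2 difference of Foxa2-deleted minus control (vertical axis) against mean log2 intensity over the 8 arrays (horizontal axis) for all genes tested, in grey, and the 34 FGF genes, filled where past the threshold. The vertical axis is cut at -2 and 2, which leaves out 56 other genes; 28 of the 34 FGF genes lie above 0 and most lie in the dimmer part of the range.

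Of the 4 signalling receptor genes 1 was higher. Fgfr4, which encodes the receptor best known for the liver's response to FGF15, read 8.11, 8.12, 8.13 and 8.13 log2 intensity in Foxa2-deleted uteri, against 7.87, 7.95, 7.88 and 7.78 in controls. The 4 Foxa2-deleted values lay within 0.02 of each other and above every control. The log2 difference was 0.25 (SE 0.05, adjusted p = 0.016, limma), with an SD of 0.01 in Foxa2-deleted uteri and 0.07 in controls. The call ended when control replicate 3 or 4 was left out (adjusted p = 0.0501 and 0.0516).

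The receptors that carry most FGF signalling in epithelium and stroma did not pass. Fgfr1, whose product is the main receptor of mesenchymal cells, read 10.54, 10.41, 10.43 and 10.40 log2 intensity in Foxa2-deleted uteri and 10.44, 10.27, 10.39 and 10.27 in controls (log2 difference 0.10, 95% interval -0.03 to 0.23, adjusted p = 0.25). Fgfr2, whose epithelial splice form binds FGF7 and FGF10, read 10.39, 10.46, 10.44 and 10.83 in Foxa2-deleted uteri and 10.67, 10.69, 10.70 and 10.57 in controls (log2 difference -0.13, SE 0.09, adjusted p = 0.38). In Fgfr2 3 of the 4 Foxa2-deleted arrays lay below every control and replicate 4 lay above every control. Without replicate 4 the gene passed as lower (difference -0.23, adjusted p = 0.028), the only 1 of 18 alternative settings in which it passed. Its 1 probe set does not separate the splice forms here. Fgfr3, a receptor gene of cartilage and epithelia, read 8.25, 8.21, 8.22 and 8.22 in Foxa2-deleted uteri and 8.34, 8.33, 8.24 and 8.19 in controls (log2 difference -0.05, 95% interval -0.16 to 0.06, adjusted p = 0.49).

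Fgfrl1 encodes an FGF receptor that lacks the tyrosine kinase domain and can bind ligand without the usual signal. It read 9.83, 9.78, 9.91 and 9.68 log2 intensity in Foxa2-deleted uteri, against 9.59, 9.36, 9.44 and 9.42 in controls. Every Foxa2-deleted array lay above every control, with the nearest pair 9.68 and 9.59. The log2 difference was 0.35 (SE 0.07, adjusted p = 0.018, limma), and it missed the threshold with control replicate 2, 3 or 4 left out (adjusted p = 0.062, 0.0587 and 0.0634).

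The 4 intracellular FGF homologous factors are not secreted and bind voltage-gated sodium channels. Fgf12 was the 1 of them that rose, at 7.99, 7.45, 7.89 and 7.61 log2 intensity in Foxa2-deleted uteri, against 7.18, 7.37, 7.22 and 7.20 in controls. Replicates 1 and 3 were the higher Foxa2-deleted arrays, as in Fgf2, and replicate 2 lay just above the highest control. The log2 difference was 0.49 (SE 0.11, adjusted p = 0.031, limma). The call was lost when Foxa2-deleted replicate 1 or 3, or any 1 control, was left out (adjusted p up to 0.0909). Fgf11, Fgf13 and Fgf14 had log2 differences of -0.16, -0.06 and 0.04, and none passed. The microRNA gene Mir690, which overlaps the annotated span of Fgf12 and was looked up after the values were seen, was lower (log2 difference -0.37, SE 0.09, adjusted p = 0.035).

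**Figure D3:**
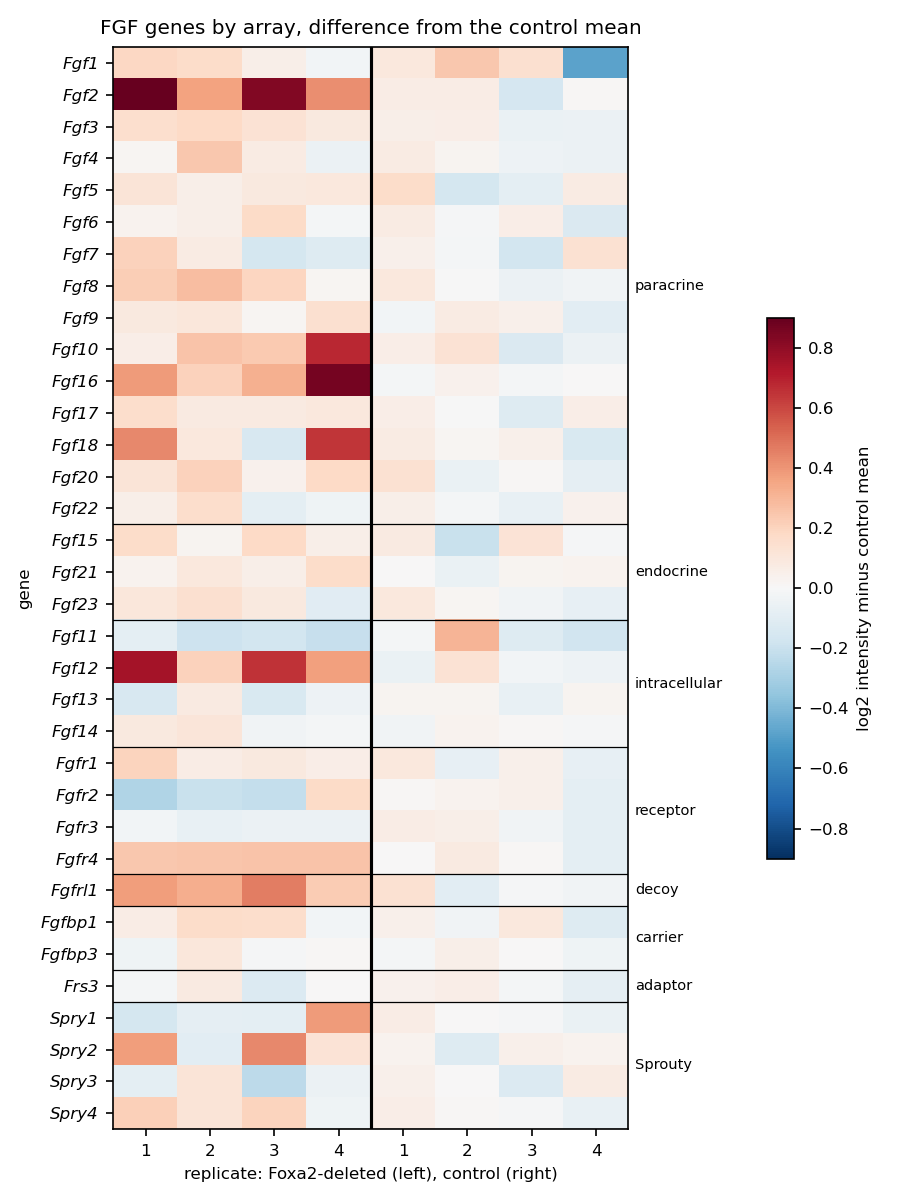
Log2 intensity minus the control mean (colour) for the 34 FGF genes (rows, grouped by role) on the 4 Foxa2-deleted and 4 control arrays (columns, numbered by replicate). Fgf2, Fgf12 and Spry2 are highest on Foxa2-deleted replicates 1 and 3, while Fgf10, Fgf16, Fgf18, Fgfr2 and Spry1 are highest on replicate 4.

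The feedback inhibitors, carriers and adaptor that were measured were uncalled. Among the 4 Sprouty genes, which encode inhibitors of receptor tyrosine kinase signalling, Spry1 differed by 0.01, Spry2 by 0.21, Spry3 by -0.07 and Spry4 by 0.12 on the log2 scale. Spry2 read 9.41, 8.94, 9.47 and 9.16 log2 intensity in Foxa2-deleted uteri and 9.07, 8.92, 9.08 and 9.07 in controls (SE of the difference 0.11, adjusted p = 0.23). It passed in 1 of 18 alternative settings, without Foxa2-deleted replicate 2 (difference 0.31, adjusted p = 0.0434). Spry1 read 9.24, 9.32, 9.31 and 9.78 in Foxa2-deleted uteri and 9.47, 9.40, 9.39 and 9.34 in controls, so 3 of its Foxa2-deleted arrays lay below every control and replicate 4 above every control, as in Fgfr2. Fgfbp1 and Fgfbp3, which encode carriers that release FGFs from the matrix, differed by 0.09 and 0.02, and the adaptor gene Frs3 by -0.02, with adjusted p from 0.35 to 0.88.

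**Figure D4:**
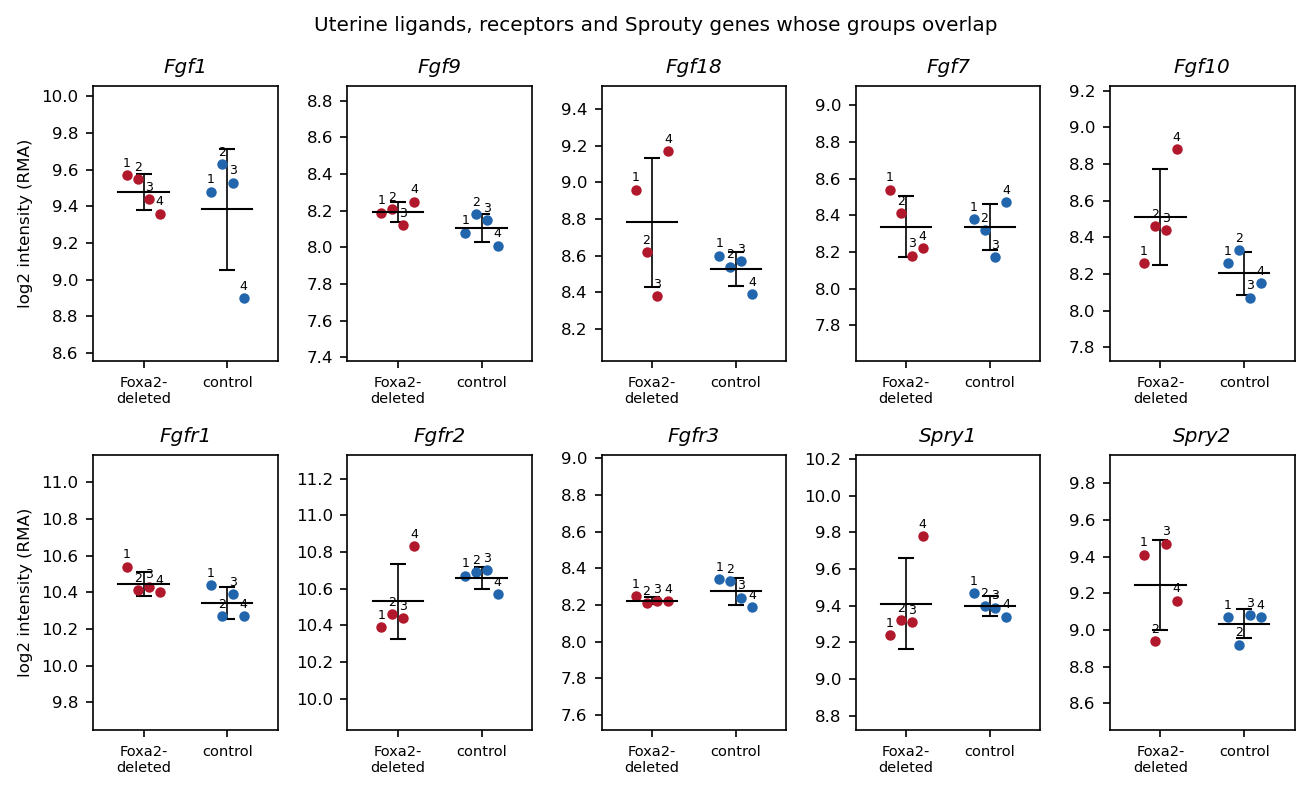
Log2 intensity (vertical axis, each panel spanning the same range of 1.5) of 10 FGF genes whose groups overlap, for 4 Foxa2-deleted and 4 control uteri, with points numbered by replicate and the mean and SD drawn. Foxa2-deleted replicate 4 stands highest in Fgf18, Fgf10, Fgfr2 and Spry1, and control replicate 4 stands lowest in Fgf1.

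The arrays of each group differed among themselves in ways shared by several FGF genes. Control replicate 1 was the highest control, alone or tied, in 16 of the 34 genes, and control replicate 4 alone was the lowest in 16. The same was not counted over all genes. Relative to the control mean, the mean over the 34 genes was 0.14, 0.11, 0.10 and 0.12 on the Foxa2-deleted arrays and 0.05, 0.02, -0.02 and -0.05 on the controls, on the log2 scale. Markers of some other cell types moved along with the genotype and those of others did not, where 11.1% of all genes tested were called. Of 9 smooth muscle markers 1 was higher and 0 lower (11.1% called, the share of all genes tested). Their mean relative to controls was 0.53, 0.17, 0.27 and -0.05 on Foxa2-deleted replicates 1 to 4. The log2 of their summed intensity ran from 15.11 to 15.64 in Foxa2-deleted uteri and from 15.09 to 15.24 in controls. Of 12 epithelial markers 6 were higher and 0 lower, with a mean of 0.69, 0.46, 1.42 and 0.81 relative to controls on Foxa2-deleted replicates 1 to 4, and a log2 sum from 14.32 to 15.31 in Foxa2-deleted uteri and from 13.74 to 13.93 in controls. Of 11 stromal markers, Hand2 among them, 0 were called, with a median log2 difference of -0.16. Their mean relative to controls was -0.12, 0.001, -0.39 and -0.13 on Foxa2-deleted replicates 1 to 4. Their log2 sum, to which the brightest markers add most, ran from 15.26 to 15.49 in Foxa2-deleted uteri and was 15.45 on every control array. Of 9 endothelial markers 7 were lower, with a log2 sum from 13.13 to 13.69 in Foxa2-deleted uteri and from 13.97 to 14.05 in controls. Of 10 lymphocyte and NK cell markers 8 were lower and 0 higher, with a median log2 difference of -0.86 and a log2 sum from 11.45 to 11.92 in Foxa2-deleted uteri and from 12.43 to 12.68 in controls. Of 9 endometrial gland markers, among them Foxa2 itself, 5 were lower and 1 higher, with a log2 sum from 11.10 to 11.71 in Foxa2-deleted uteri and from 11.93 to 12.54 in controls. The gland secretory genes Spink1 and Cxcl15 moved most in that list (log2 differences -4.28 and -3.99, adjusted p = 0.00024 and 4.5e-07). Of 8 neutrophil markers 2 were higher and 0 lower, Cxcr2 by 2.33 and Ly6g by 1.21, with a log2 sum from 10.51 to 11.47 in Foxa2-deleted uteri and from 10.04 to 10.12 in controls. Of 7 macrophage markers and of 6 markers of ovary, oviduct and mesothelium 0 were called. Of 5 fat markers 1 was higher, with a log2 sum from 11.68 to 12.93 in Foxa2-deleted uteri and from 10.49 to 12.22 in controls. The part of these cell types in the FGF results was not tested.

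Genes on each side of the FGF proteins were counted from lists of the pathway, which were chosen with earlier results of these data known. Of 23 measured genes of the cell surface, the proteoglycans, heparan sulfate enzymes and coreceptors that FGFs need, 3 were higher and 1 lower (17.4% called, against 11.1% of all genes tested), with a median log2 difference of 0.10. Ncam1, which encodes an adhesion molecule that can bind FGF receptors, rose by 1.06 (SE 0.12, adjusted p = 0.0024), at 9.54 to 10.12 log2 intensity in Foxa2-deleted uteri and 8.79 to 8.98 in controls. This difference passed with any 1 array left out. Sdc1, which encodes the epithelial heparan sulfate proteoglycan syndecan 1, rose by 0.76 (SE 0.16, adjusted p = 0.024), and Gpc4, which encodes a glypican, by 0.66 (SE 0.12, adjusted p = 0.016). Sdc1 read 10.94, 10.27, 10.87 and 10.23 in Foxa2-deleted uteri and 9.75 to 9.90 in controls, with the higher pair again on replicates 1 and 3. Gpc3, a glypican gene that fell by 1.36 (SE 0.30, adjusted p = 0.027), showed the same pairing the other way, at 8.72, 10.11, 8.68 and 9.76 in Foxa2-deleted uteri and 10.61 to 10.76 in controls. Leaving out Foxa2-deleted replicate 1 or any 1 control ended the calls of Sdc1 (highest adjusted p 0.076) and Gpc3 (highest adjusted p 0.0784), and leaving out control replicate 2, 3 or 4 ended that of Gpc4 (highest adjusted p 0.0558).

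Of 16 measured genes of the RAS-MAPK relay and its branches below the receptors, 2 were lower and 0 higher, with a median log2 difference of -0.10. The share called, 12.5%, was near the 11.1% of all genes tested. Gab1, which encodes a docking protein that links FRS2 to phosphatidylinositol 3-kinase, fell by 0.47 (SE 0.07, adjusted p = 0.0079), at 9.93, 10.09, 9.76 and 9.95 log2 intensity in Foxa2-deleted uteri and 10.47, 10.38, 10.37 and 10.37 in controls. The call of Gab1 held with any 1 array left out. Plcg1, which encodes the phospholipase C that docks on FGF receptors, fell by 0.36 (SE 0.08, adjusted p = 0.027). Its call ended when Foxa2-deleted replicate 1 or any 1 control was left out, with adjusted p as high as 0.0801.

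Of 18 feedback and target genes of FGF and MAPK signalling, 1 was higher and 1 lower, with a median log2 difference of 0.07. The share called, 11.1%, was that of all genes tested. Dusp4, which encodes a phosphatase that switches off MAP kinases, rose by 0.41 (SE 0.11, adjusted p = 0.044), at 7.81, 8.16, 8.27 and 8.02 log2 intensity in Foxa2-deleted uteri and 7.72, 7.45, 7.79 and 7.65 in controls. Egr1, an immediate early gene of MAPK signalling, fell by 0.60 (SE 0.15, adjusted p = 0.039), at 8.55, 9.08, 8.93 and 8.92 in Foxa2-deleted uteri and 9.52, 9.13, 9.80 and 9.43 in controls. Both differences were close to the threshold. Of the 8 arrays, only Foxa2-deleted replicate 1 could be left out with Dusp4 still past the threshold (highest adjusted p 0.114). Egr1 missed it when Foxa2-deleted replicate 1 or 3 or control replicate 1, 3 or 4 was left out (highest adjusted p 0.0968). Cyclic loess scaling, testing of all probe sets and the replicate number as a block each ended both calls. Quantile normalisation applied again ended that of Egr1.

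**Figure D5:**
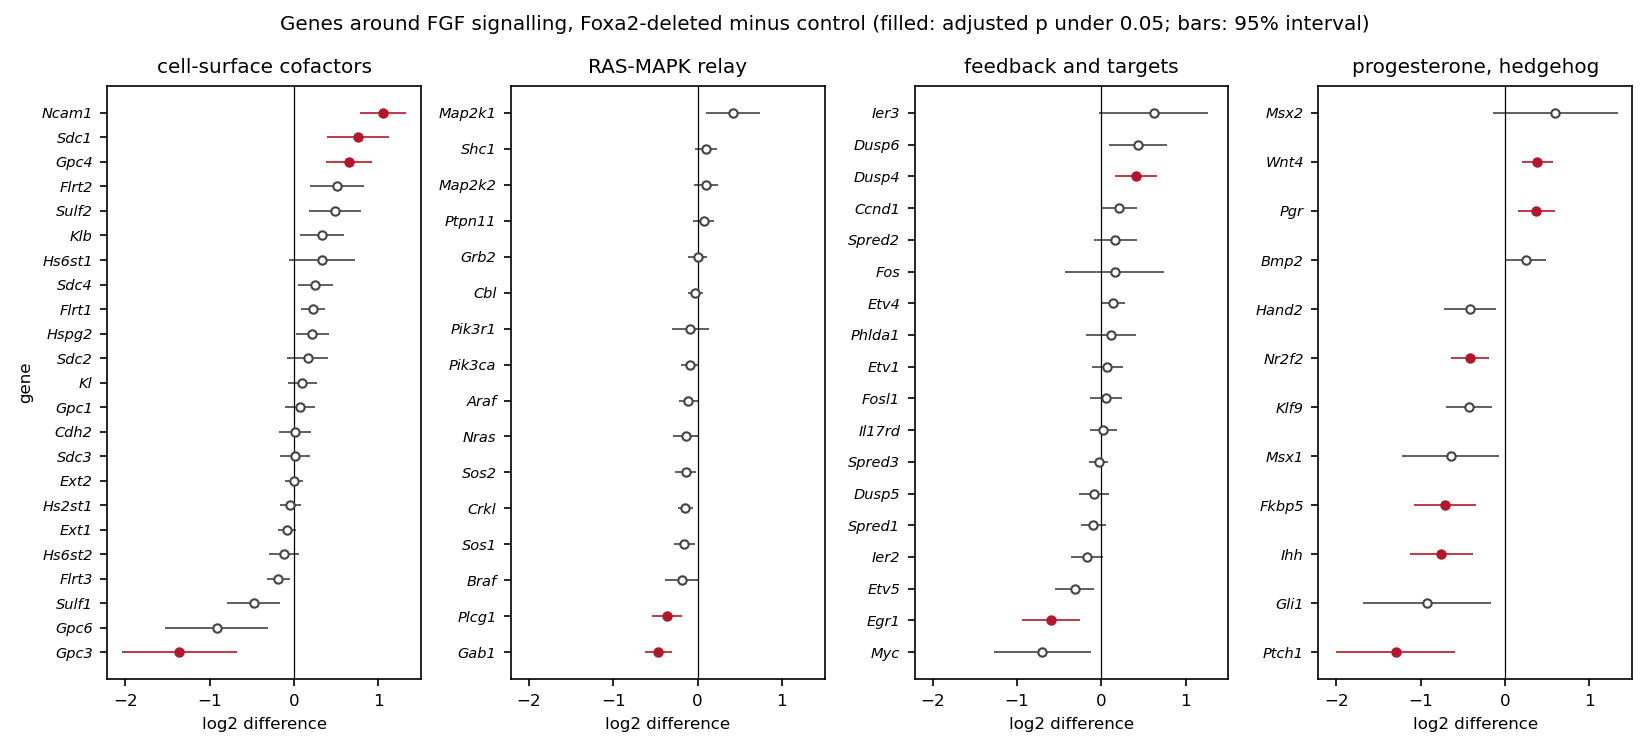
Log2 difference of Foxa2-deleted minus control (horizontal axis) with its 95% interval for the measured genes of 4 lists around FGF signalling, 1 panel per list and 1 row per gene. Filled points passed an adjusted p of 0.05: 4 cell-surface genes, 2 relay genes, 2 feedback or target genes and 6 genes of the progesterone and hedgehog list.

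The last list held 12 genes of the progesterone and hedgehog axis around HAND2, a mixed set of epithelial ligand, stromal regulator and progesterone target genes that are not all regulators of FGF. Of these 2 were higher and 4 lower (50% called, against 11.1% of all genes tested), with a median log2 difference of -0.42, where that of all genes was 0.01. The list was chosen with earlier results of these data known, so its share is a description and no evidence of an excess. Hand2, the repressor of the ligand genes named above, read 9.29, 9.64, 8.88 and 9.39 log2 intensity in Foxa2-deleted uteri, against 9.79, 9.68, 9.71 and 9.67 in controls. The groups did not overlap, but the difference of -0.41 missed the threshold (SE 0.14, adjusted p = 0.082), and it passed without Foxa2-deleted replicate 2 (adjusted p = 0.0209). Nr2f2, which encodes the stromal transcription factor COUP-TFII upstream of HAND2, fell by 0.42 (SE 0.10, adjusted p = 0.034), at 11.01, 11.27, 10.76 and 11.16 in Foxa2-deleted uteri and 11.41 to 11.52 in controls. The hedgehog receptor and target gene Ptch1 fell by 1.30 (SE 0.31, adjusted p = 0.033), the epithelial hedgehog ligand gene Ihh by 0.76 (SE 0.16, adjusted p = 0.025) and Fkbp5, a progesterone-induced chaperone gene, by 0.71 (SE 0.16, adjusted p = 0.028). Pgr and the signalling gene Wnt4 were higher (log2 differences 0.37 and 0.39, adjusted p = 0.043 and 0.023). In the Foxa2-deleted animals 1 Pgr allele carries Cre, and whether the Pgr probe set reads RNA of that allele is not known here. All 6 calls of this list were lost without any 1 control, with adjusted p up to 0.0995 for Nr2f2, 0.0926 for Ptch1, 0.0776 for Ihh, 0.0816 for Fkbp5, 0.105 for Pgr and 0.0727 for Wnt4. Ihh, Ptch1, Nr2f2 and Pgr also missed the threshold without Foxa2-deleted replicate 1, Ptch1 without replicate 3 and Pgr without replicate 4. Nr2f2 and Pgr missed it with the replicate number as a block. Pgr also missed it with quantile normalisation applied again (adjusted p = 0.0505) and with all probe sets tested (0.0576).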

How the data were processed

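The deposited table holds a log2 intensity for each probe set on each array. The authors made it with RMA (background correction, normalisation between arrays, summary of probes), per the submitters' processing notes, which also name limma. No version or genome build is named in the labels. RMA pulls dim probe sets together, so differences of dim genes are understated. Target was made from 150 ng of total RNA, per the labels' protocols. Of 35556 probe sets, 21789 had 1 gene symbol in GEO's platform annotation, 1621 several and 12146 none. Only those with 1 symbol were tested. Each of the 19938 genes was represented by its brightest probe set on average. Differences (Foxa2-deleted minus control) were fitted over all of them in R 4.3.3 without covariates (limma 3.58.1, lmFit then eBayes). P-values were adjusted by Benjamini-Hochberg, with 0.05 as threshold. SD is over 4 uteri, and SE and 95% intervals are those of the moderated fit. The steps were tested on simulated data. The members and lists were chosen with earlier results of these data known. Lists are described by counts and medians. Values per array are given for FGF genes past the threshold, for those whose groups do not overlap, for the HAND2-repressed ligands, for Fgf7, Fgf10 and the receptors, and, chosen after their values were seen, for Spry1 and Spry2. Of each pathway list up to 6 genes past the threshold are named, besides Foxa2, Pgr and Hand2. The 18 alternatives covered scaling, filters on dim genes, choice of probe set, the variance model, the replicate number as a block and leaving out each array.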

Additional observations from a re-analysis of the deposited data

Results flagged for a closer look

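Of 100 groups of 4 arrays tested for 1 array far from the other 3 (50 genes, both genotypes), 5 met the criterion, and chance gives about 1 in 20. In Fgfr2, Foxa2-deleted replicate 4 was at 10.83 log2 intensity, with the next at 10.46 and the lowest at 10.39. In Spry1, the same array was at 9.78, with the next at 9.32 and the lowest at 9.24. Among controls, replicate 2 was lowest in Spry2 at 8.92, below 9.07, and replicate 3 was lowest in Fgf13 at 7.31, where the other 3 were equal at 7.40. In Gab1, control replicate 1 was highest at 10.47, above 10.38.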

How the results depend on the processing

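Fgf2, Fgfr4, Fgfrl1 and Fgf12 kept their direction under each of the 18 alternatives in which they were tested. The 4 FGF calls remained under the 3 other scalings, both other choices of probe set and both other variance models, which called 4 or 5 FGF genes. With the lower 50% of genes left out 11 FGF genes were tested and 2 passed. The correlations of same-numbered deviations from the group means ran from -0.05 to 0.06. With so few arrays they cannot settle whether the replicate numbers pair the arrays. With the replicate block 1 FGF gene passed (Fgfrl1), as did 8 pathway genes and 1062 of all genes, 435 higher and 627 lower. Leaving out 1 array at a time gave 0 to 7 FGF genes, 2 to 22 pathway genes (14 in all with every array) and 556 to 3059 of all genes (2209 with every array), 196 to 1374 higher and 348 to 1777 lower. Of all genes 898 were called higher and 1311 lower. The split was 1082 and 982 with arrays centred on the median, 1011 and 939 with quantile normalisation applied again and 960 and 949 with cyclic loess. Array weights called 24 pathway genes and 1351 genes higher, and with the lower 50% of genes left out 533 were higher. Differences near 0 turned sign in 6 FGF genes, and none of these values passed. Frs3 turned to 0.0366 under quantile normalisation, 0.015 under median centring, 0.0359 under cyclic loess and 0.000629 under array weights, Fgfbp3 to -0.00183 under cyclic loess and Spry1 to -0.0117 under array weights. With 1 array left out they ran from -0.0467 to 0.02 in Frs3, -0.0108 to 0.0358 in Fgfbp3, -0.11 to 0.07 in Spry1, -0.065 to 0.055 in Fgf7, -0.0267 to 0.0567 in Fgf22 and -0.0667 to 0.18 in Fgf1. The cause was not tested. How far dim probe sets stand above background limits all the dimmer FGF genes.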

Other observations

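Dusp6, Etv4 and Etv5, often used as transcript readouts of FGF signalling and picked here after their values were seen, did not pass and did not move together. Dusp6, which encodes a phosphatase of ERK, read 10.16, 10.02, 10.73 and 9.98 log2 intensity in Foxa2-deleted uteri and 9.81, 9.73, 9.73 and 9.88 in controls (log2 difference 0.44, SE 0.15, adjusted p = 0.091, limma). Its groups did not overlap, and Foxa2-deleted replicate 3 stood highest. The ETS factor gene Etv5 read 9.07, 8.92, 9.10 and 9.41 in Foxa2-deleted uteri and 9.42, 9.46, 9.31 and 9.57 in controls (log2 difference -0.32, SE 0.10, adjusted p = 0.078). Etv4, its relative, differed by 0.14 (SE 0.06, adjusted p = 0.18).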
